A study of Mus musculus with 6 samples.

Results

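The ductal cell genes Sox9, Onecut1, Krt19, Krt7, Spp1, Muc1, Cftr, Car2 and Bicc1 were examined in whole pancreas of mice labelled as overexpressing the homeobox transcription factor Prox1. They are 9 listed genes, chosen by name, and a probe set (a group of array probes summarized to 1 value) was taken for a gene where the array annotation gave it that gene symbol alone. By this rule 8 of the 9 genes were measured, by 14 probe sets, out of 18194 genes and 45101 probe sets on the array. Spp1 had no probe set under its symbol and was not analysed here.

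The Prox1-OE mice had the genotype Jojo-Prox1,Ngn3-cre and the control mice had Ngn3-cre, so both groups carried the Cre. All were of NMRI background and were taken at postnatal day 15, with 3 arrays per group and 1 array per sample. Ngn3-cre is driven by Neurog3, a gene of endocrine progenitors, and the labels do not say whether animals were pooled or in which cells recombination took place. The arrays were very alike (Pearson correlations of 0.988 to 0.994 over all probe sets), and on the first 2 principal components Prox1-OE replicate 1 and control replicate 3 lay farthest out. The brightest probe set of Prox1 read 5.20 ± 0.19 in Prox1-OE and 5.14 ± 0.41 in control pancreas (SD, n = 3 each), and the other 2 probe sets of Prox1 differed by 0.02 and -0.03 (limma adjusted p from 0.974 to 0.990 for the 3 over all probe sets). These readings do not check the labels, since the transgene's transcript may lack the parts the probe sets target.

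The ducts of the pancreas form a branching epithelium that carries the acinar enzymes to the gut and adds a bicarbonate-rich fluid. Sox9 and Onecut1 are transcription factors of the embryonic pancreatic epithelium that stay on in duct cells, and in the embryo cells of this epithelium switch on Neurog3 before they become endocrine. Keratins 7 and 19 build the filaments of duct cells, while Cftr and Car2 serve the secretion of ions and bicarbonate. Whole pancreas is mostly acinar tissue, so ducts are a minor part of each sample, and in such bulk samples fewer duct cells and less RNA per duct cell cannot be told apart.

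None of the 8 measured ductal cell genes passed the test between Prox1-OE and control pancreas. The readings of the groups overlapped for every one of them, and the log2 differences (Prox1-OE minus control) ran from -0.26 for Muc1 to 0.03 for Cftr. Of all 18194 genes, 0.0275% passed at a limma adjusted p of 0.05 (Benjamini-Hochberg over all genes), and 6.65% had an unadjusted p under 0.05, against 0 of the 8. Groups that did not overlap were found for 12.1% of all genes and 0 of the 8. The differences were negative for 6 of the 8 and for 53.8% of all genes, with a median of -0.19 for the 8 and -0.01 for all genes.

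Among the transcription factors, Sox9, which keeps pancreatic progenitors and duct cells in their state, read 6.21, 6.07 and 6.56 on the log2 scale in Prox1-OE pancreas, against 6.64, 6.42 and 6.40 in control. Prox1-OE replicate 3 lay among the controls and the other Prox1-OE arrays below them, so the groups overlapped. The log2 difference was -0.21 ± 0.14 (SE; limma adjusted p = 0.800). It was -0.35 without Prox1-OE replicate 3, -0.10 without Prox1-OE replicate 2 and -0.13 without control replicate 1.

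Onecut1, also called HNF6, acts upstream of Neurog3 in the embryo and is kept in duct and acinar cells. It read 7.39, 7.19 and 7.54 in Prox1-OE pancreas, against 7.76, 7.58 and 7.48 in control. Again only Prox1-OE replicate 3 reached into the range of the controls. The log2 difference was -0.23 ± 0.12 (SE; limma adjusted p = 0.770), the smallest p of the 8 genes, with a 95% interval of -0.51 to 0.05. Without Prox1-OE replicate 2 it was -0.14.

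Krt19, the keratin most used to mark pancreatic ducts, read 7.78, 7.53 and 8.12 in Prox1-OE pancreas, against 7.48, 7.79 and 8.14 in control. The means were nearly equal, at 7.81 ± 0.30 in Prox1-OE and 7.80 ± 0.33 in control (SD, n = 3 each), and the spread within each group was far wider than their difference of 0.01 ± 0.20 (SE; limma adjusted p = 0.995). Krt19 is also made by mesothelium, the lining of the pancreas surface. The 6 mesothelial markers Msln, Upk3b, Upk1b, Wt1, Lrrn4 and Muc16, taken as the mean over control in log2 units, stood at 0.21, 0.22 and 0.06 on Prox1-OE replicates 1, 2 and 3, and at -0.56, 0.08 and 0.48 on control replicates 1, 2 and 3. In control pancreas both Krt19 and these markers were lowest on replicate 1 and highest on replicate 3, while in Prox1-OE pancreas Krt19 was highest on replicate 3, where the markers were lowest. Their part in the readings of Krt19 was not tested.

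Krt7, a keratin that pairs with type I keratins such as Krt19, read 5.88, 5.65 and 5.89 in Prox1-OE pancreas, against 5.83, 6.12 and 5.96 in control. Control replicate 1 lay between the Prox1-OE arrays, and the log2 difference was -0.17 ± 0.11 (SE; limma adjusted p = 0.800). Without Prox1-OE replicate 2 or control replicate 2 it was -0.09.

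**Figure D1:**
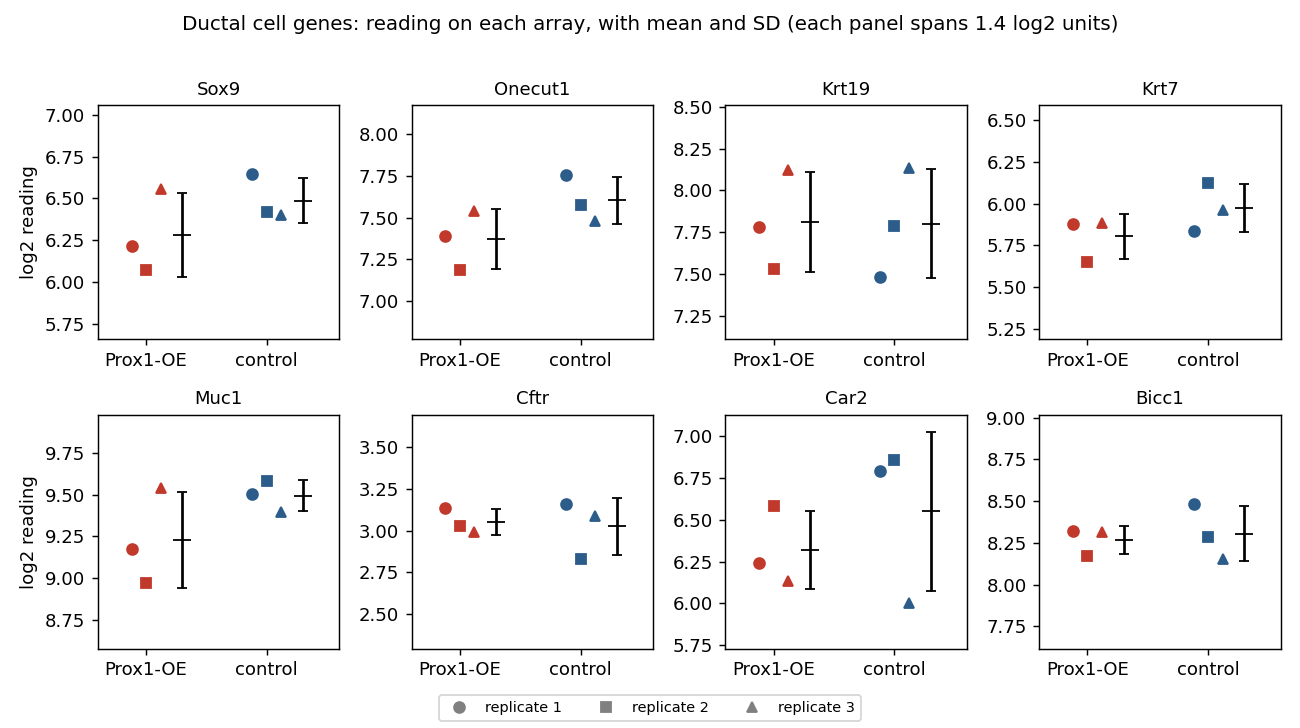
Log2 readings (vertical axes, each spanning 1.4 units) of the 8 measured ductal cell genes on the 3 Prox1-OE arrays (red, left) and the 3 control arrays (blue, right), with the mean and SD beside the points. The groups overlapped for every gene, and the arrays spread most within control for Car2 and within both groups for Krt19.

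Muc1 encodes a mucin of the apical membrane of duct and acinar cells. It read 9.18, 8.97 and 9.54 in Prox1-OE pancreas, against 9.50, 9.58 and 9.40 in control. Prox1-OE replicates 1 and 2 were below all controls and replicate 3 lay between control replicates 1 and 2. This was the largest difference in size among the 8, at -0.26 ± 0.14 (SE; limma adjusted p = 0.775), or 0.832-fold, and its 95% interval ran from -0.60 to 0.07. It was -0.42 without Prox1-OE replicate 3 and -0.14 without Prox1-OE replicate 2 (limma adjusted p = 0.662 and adjusted p = 0.909).

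Cftr encodes the chloride and bicarbonate channel of the duct cell surface that is mutated in cystic fibrosis. It read 3.14, 3.03 and 2.99 in Prox1-OE pancreas, against 3.16, 2.83 and 3.09 in control, and the groups differed by 0.03 ± 0.11 (SE; limma adjusted p = 0.977). These readings stood at percentile 9.66 of all probe sets and below the median reading of the arrays (4.40), a range in which RMA, the summary method of these values, compresses differences. The groups overlapped.

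Car2 encodes carbonic anhydrase II, which makes the bicarbonate that ducts secrete. It read 6.24, 6.58 and 6.14 in Prox1-OE pancreas, against 6.79, 6.86 and 6.003 in control. Control replicate 3 was the lowest of all 6 arrays, whereas the other controls were the highest. The difference, -0.23 ± 0.23 in log2 units (SE; limma adjusted p = 0.865), had the widest 95% interval of the 8 genes, from -0.75 to 0.29. Without control replicate 3 it was -0.50 (limma adjusted p = 0.739), and without control replicate 2 it was -0.08 (adjusted p = 0.974).

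Red cells and their precursors also hold carbonic anhydrase II. Of 7 erythroid genes 4 were measured (Hba-a1, Alas2, Slc4a1 and Epb42), and their mean over control was -0.82, 0.27 and -0.46 on Prox1-OE replicates 1, 2 and 3, against 0.24, -0.01 and -0.22 on control replicates 1, 2 and 3. Hba-a1, an alpha globin gene, read 3.19, 3.29 and 3.20 in Prox1-OE pancreas, against 3.41, 3.37 and 3.74 in control. Hba-a1 (percentile 22.3 of all probe sets) and Epb42 (percentile 43.6) stood below the median reading of the arrays (4.40). This limits what their readings, and the mean of the 4, can show. Alas2, whose product starts heme synthesis in erythroid cells, read 4.93, 6.90 and 5.84 in Prox1-OE pancreas, against 6.86, 6.18 and 6.08 in control. Within Prox1-OE, Car2 and all 4 erythroid genes were highest on replicate 2. Within control, Car2, Alas2 and Slc4a1 were lowest on replicate 3, whereas Hba-a1 was highest there and Epb42 was lowest on replicate 2. Aqp1, a water channel of ducts, vessels and red cells, was chosen after its values were seen and had its lowest reading on the same control array (8.54, 8.74 and 8.60 in Prox1-OE pancreas, against 9.000, 8.79 and 8.01 in control). The part of red cells in the readings of Car2 was not tested.

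Bicc1 encodes an RNA-binding protein whose loss gives cysts in kidney and pancreatic ducts of mice. It read 8.32, 8.17 and 8.32 in Prox1-OE pancreas, against 8.48, 8.28 and 8.15 in control. The Prox1-OE arrays lay wholly within the range of the controls, and the log2 difference was -0.04 ± 0.11 (SE; limma adjusted p = 0.966).

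The arrays differed in the same sense for several of these genes. The highest reading of all 8 was on a control array (4 on replicate 1, 3 on replicate 2 and 1 on replicate 3), which held for 54.0% of all genes. The lowest reading of Sox9, Onecut1, Krt7 and Muc1 was on Prox1-OE replicate 2, the lowest array for 18.7% of all genes, and the other 4 genes had their lowest reading on a control array. The mean of the 8, relative to control, was -0.14, -0.26 and -0.02 on Prox1-OE replicates 1, 2 and 3, against 0.05, 0.03 and -0.08 on control replicates 1, 2 and 3. Prox1-OE replicate 3 thus lay within the range of the controls. The median difference of -0.19 was -0.10 without Prox1-OE replicate 2 and -0.08 without control replicate 2. The measure of these extremes was chosen after the readings were seen. The 8 genes were read on the same arrays and are not independent, so these counts cannot be weighed against the shares of all genes. The margin was small for Krt19 (8.14 on control replicate 3 against 8.12 on Prox1-OE replicate 3). It was also small for Cftr (3.16 on control replicate 1 against 3.14 on Prox1-OE replicate 1), and wider for the other genes.

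The fit can be read together with its precision. Every 95% interval of the 8 genes held 0, with the lowest bound at -0.75 (Car2) and the highest at 0.46 (Krt19). In simulated data with the spread of these arrays and 200 changed genes, a change of 0.5 (log2) was called for 42% of genes and a change of 1 for 97.2%. The fit of the real arrays called 5 genes, so its adjustment was stricter and these shares do not carry over to it. In that fit the endocrine genes Slc2a2 (-1.23) and Ppy (1.29) did not pass (limma adjusted p = 0.292 and 0.690), while Chga (-1.51) did. The differences of Muc1, Onecut1 and Sox9 were smaller in size than 0.5, and a p that misses the threshold does not show that the groups were alike.

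Several probe sets of 1 gene offered a second reading of Sox9, Onecut1, Cftr and Bicc1. None of the 14 probe sets passed in a fit of all probe sets, of which 0.0111% did (limma adjusted p from 0.814 to 0.996 for the 14), and the groups overlapped for each of the 14. The difference was negative for 11 of them. The second probe set of Sox9 was about as bright as the first and differed by -0.15 ± 0.14 (SE), while the third, at percentile 23.8 of all probe sets, differed by 0.08 ± 0.14. Both probe sets of Onecut1 were lower in Prox1-OE on average, by -0.23 and -0.19, but their controls ran in different orders: replicate 1 was the highest control on the brighter probe set (7.76) and the lowest on the dimmer one (5.61). The 3 probe sets of Bicc1 differed by -0.04, -0.01 and -0.09, and all had their highest control reading on replicate 1. The dimmer probe set of Cftr stood at percentile 1.69 and differed by -0.06, against 0.03 for the other.

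**Figure D2:**
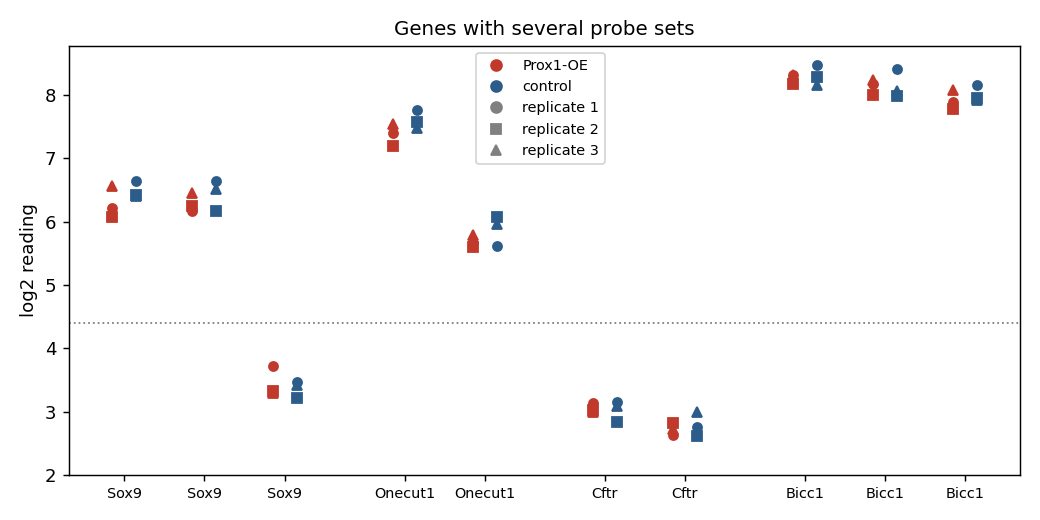
Log2 readings (vertical axis) of every probe set of Sox9, Onecut1, Cftr and Bicc1 on the Prox1-OE (red, left of each pair) and control arrays (blue, right), with the median of all values as a dotted line. The third probe set of Sox9 and both of Cftr lie below the median of 4.40, and the groups overlap for each probe set.

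Set beside acinar genes, the ductal cell genes kept small differences. The acinar list held 14 measured enzyme and transcription factor genes, among them Cela3b (14.79 in Prox1-OE and 14.89 in control, near the top of the scale), the acinar transcription factor gene Nr5a2 (8.87 in Prox1-OE and 9.15 in control), and the water channel gene Aqp12 (10.98 in Prox1-OE and 11.29 in control). Of the 14 genes 6, these 3 included, read lower on each Prox1-OE array than on any control (7.02% of all genes), none of the 14 passed the test, and the list's median difference was -0.06. Besides Cela3b, the group means of Ctrb1, Cela2a, Cpa1, Cela1, Cpb1, Cel and Prss2 lay between 14.4 and 14.9. The highest value on any array was 14.92. Differences so near the top of the scale may be compressed, which limits this list as a measure of acinar change. Each array was then centred on the mean of this list. This shifts the differences of all genes by the same amount, so their signs on that scale depend on the list. The 8 ductal cell genes then differed by a median of -0.09, with 5 negative and 3 positive, beside a median of 0.08 for all genes. On that scale 0 of the 8 passed, beside 0.0275% of all genes, and Bicc1 changed sign, to 0.06 ± 0.11 (SE; limma adjusted p = 0.868). The largest in size were Muc1 (-0.17 ± 0.13), Onecut1 (-0.14 ± 0.11) and Car2 (-0.14 ± 0.24).

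The ductal cell genes, with differences of -0.26 to 0.03, were also set beside endocrine genes, whose differences ran from -1.51 to 1.29. Of 15 measured endocrine genes, 11 had a negative difference, with a median of -0.22 (-0.09 without control replicate 1), and 6 read lower and 2 higher on every Prox1-OE array than on any control (7.02% and 5.05% of all genes). Chga, which encodes chromogranin A of hormone granules, was the 1 that passed and fell by 1.51 (log2), with 7.45 ± 0.19 in Prox1-OE and 8.96 ± 0.21 in control (SD, n = 3 each; limma adjusted p = 0.0217). Its difference was between -1.61 and -1.20 under the 17 other settings, of which 11 kept the call. The 11 include centring on the endocrine list, which holds Chga itself and is no independent check. The call was lost without Prox1-OE replicate 1 (adjusted p = 0.0951), Prox1-OE replicate 3 (0.158), control replicate 1 (0.0760) or control replicate 2 (0.179), with the replicate number as a block (0.0519) and with the mean of the macrophage markers as a covariate (0.857). The glucose transporter gene Slc2a2 (5.14 in Prox1-OE and 6.37 in control) and the beta cell factor gene Nkx6-1 (4.79 in Prox1-OE and 5.45 in control) did not pass (limma adjusted p = 0.292 and 0.482). The 2 that read higher were Ppy, by 1.29, and Isl1, by 0.17, and neither passed (limma adjusted p = 0.690 and 0.771). Averaged over the list and set against control, the endocrine genes stood at -0.21, -0.33 and -0.40 on Prox1-OE replicates 1, 2 and 3, against 0.20, 0.01 and -0.21 on control replicates 1, 2 and 3, so control replicate 3 reached into the range of Prox1-OE. This list and its direction were known from earlier results of these data and are not independent evidence.

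When each array was centred on the endocrine mean, all 8 ductal cell genes had a positive difference, with a median of 0.12. The whole array shifted on that scale, since the median of all genes was 0.30 and 2.81% of them passed, and 6 of the 8 ductal cell genes lay below that median. None of the 8 passed. The highest were Cftr (0.34 ± 0.20; SE, limma adjusted p = 0.257), Krt19 (0.32 ± 0.20; adjusted p = 0.268) and Bicc1 (0.27 ± 0.20; adjusted p = 0.309), and Cftr and Bicc1 read higher on each Prox1-OE array than on any control, as did 34.5% of all genes on that scale. The fit on that scale gave all 8 genes the same SE, so it does not measure the spread of each gene.

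**Figure D3:**
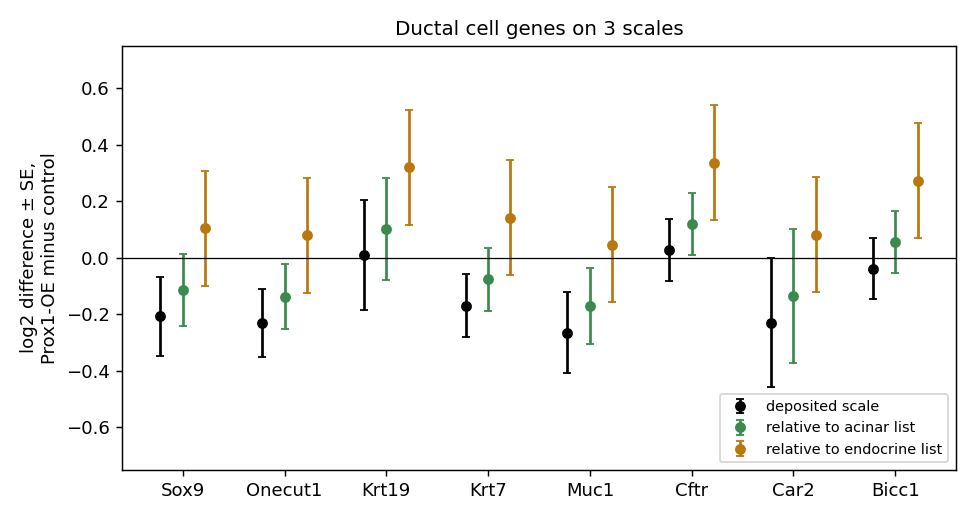
Log2 difference, Prox1-OE minus control, ± SE (vertical axis) of the 8 ductal cell genes as deposited (black), with arrays centred on the acinar list (green) and on the endocrine list (orange). Against the endocrine list all 8 lie above 0, by 0.05 to 0.34, on a scale where the median of all genes is 0.30, and none passed the test on any of the scales. The SE on the endocrine scale is the same for all 8 genes.

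The readings of different probe sets do not rank transcripts, because probes differ in how strongly they bind. As a description, the mean readings of the 8 ductal cell genes ran from 3.04 (Cftr) to 9.36 (Muc1), those of the acinar list from 9.01 to 14.84 and those of the endocrine list from 4.34 to 12.93.

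Other genes of the duct programme were listed from textbook knowledge, and 30 of 33 were measured. Their mean readings ran from 3.18 to 13.31, the brightest being Tff2, at percentile 99.8 of all probe sets. Clu, Krt8, Krt18 and Cdh1 stood at percentiles 98.2 to 99.6, also above Muc1 (95.9), the brightest of the 8 ductal cell genes. How much of the RNA of these 30 genes came from duct cells and how much from other cells of the pancreas was not tested. None of the 30 passed, at an unadjusted p under 0.05 or adjusted, and 13 had a positive and 17 a negative difference, with a median of -0.02. Every 95% interval held 0. The 5 transcription and signalling genes had a median of -0.06, the 9 keratin and junction genes 0.00, the 9 transport genes 0.00, the 3 cilium and tubule genes -0.10 and the 4 secreted proteins -0.09.

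The smallest p among them was that of Ambp, the precursor of alpha-1-microglobulin and bikunin, which read 8.56, 8.57 and 8.62 in Prox1-OE pancreas, against 9.05, 8.72 and 8.72 in control. Its arrays did not overlap between the groups, and it differed by -0.24 ± 0.11 (SE; limma adjusted p = 0.753). Yap1, a growth-controlling coactivator of the Hippo pathway, was the other gene of the 30 without overlap (both were lower in Prox1-OE, against 7.02% of all genes) and differed by -0.14 ± 0.09 (SE; limma adjusted p = 0.786). Pkd1, which is mutated in polycystic kidney disease, read 6.01, 5.42 and 6.04 in Prox1-OE pancreas, against 5.70, 5.51 and 5.42 in control, and differed by 0.28 ± 0.17. Pkhd1, which encodes fibrocystin of the cilium, differed by -0.24 ± 0.15, the protease inhibitor gene Wfdc2 by -0.16 ± 0.11, and Slc26a6, an exchanger of chloride for bicarbonate, by -0.14 ± 0.10 (limma adjusted p from 0.784 to 0.814 for these 4 genes).

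**Figure D4:**
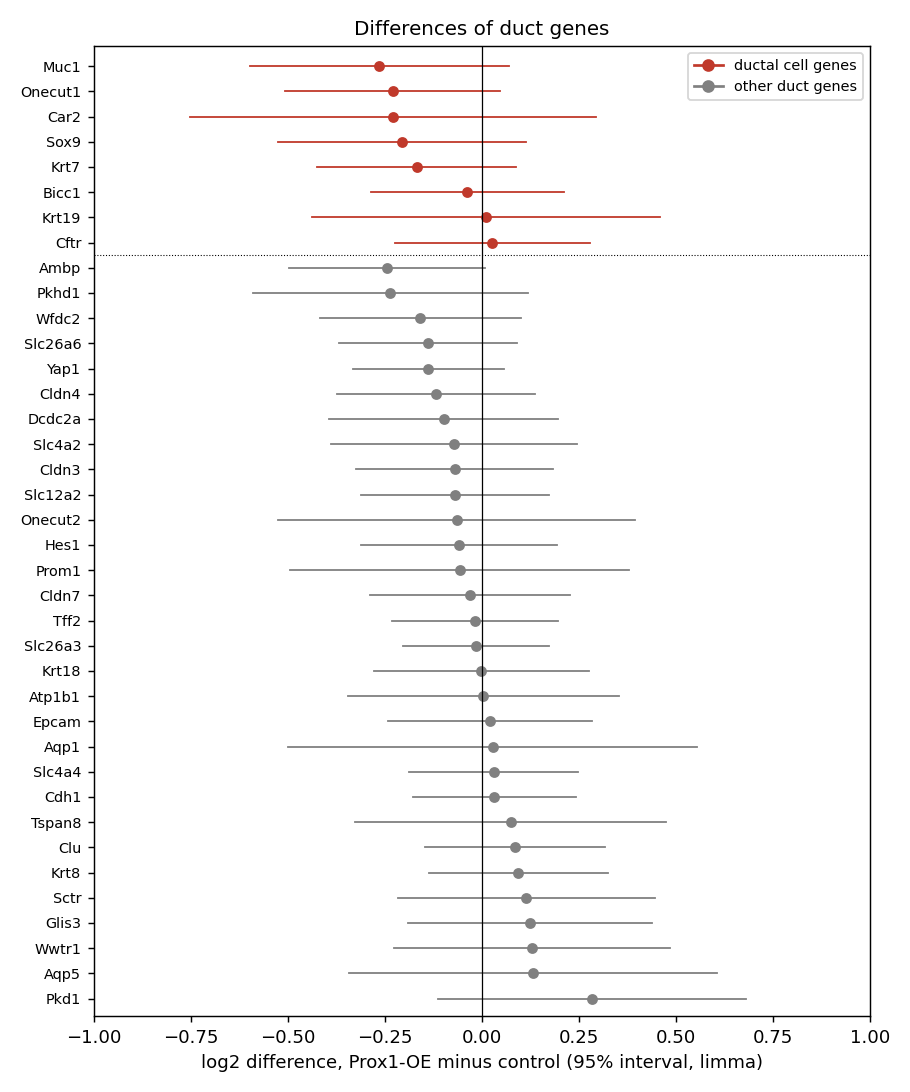
Log2 difference, Prox1-OE minus control, with its 95% interval (horizontal axis), of the 8 ductal cell genes (red, above the dotted line) and 30 other duct genes (grey). Every interval shown holds 0, and the intervals of the 8 lie between -0.75 and 0.46.

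Markers of other cells of the pancreas were set beside the duct genes. Of 12 macrophage genes 11 had a positive difference (median 0.60) and 7 were higher on every Prox1-OE array than on any control (5.05% of all genes), among them C1qc (1.505-fold), Fcgr3 (1.47-fold) and Ctss (2.83-fold), with none past the test. Averaged over the list and set against control, they stood at 1.05, 0.38 and 0.43 on Prox1-OE replicates 1, 2 and 3, against 0.15, 0.01 and -0.16 on control replicates 1, 2 and 3. With that mean as a covariate the ductal cell genes had a median difference of -0.23, and no gene of the whole array passed in that fit. The medians of the other lists were 0.05 for 7 B cell, 0.24 for 8 fibroblast and stellate, 0.14 for 6 mesothelial, -0.37 for 4 erythroid, -0.23 for 5 hepatocyte and -0.05 for 7 intestinal genes, again with none past the test. Leaving out 1 array turned the median of the mesothelial genes to -0.14 (without control replicate 1) and that of the B cell genes to -0.03 (without Prox1-OE replicate 1). It put the median of the erythroid genes between -0.65 and -0.06, of the fibroblast and stellate genes between 0.14 and 0.34, of the hepatocyte genes between -0.38 and -0.07 and of the intestinal genes between -0.10 and -0.02.

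**Figure D5:**
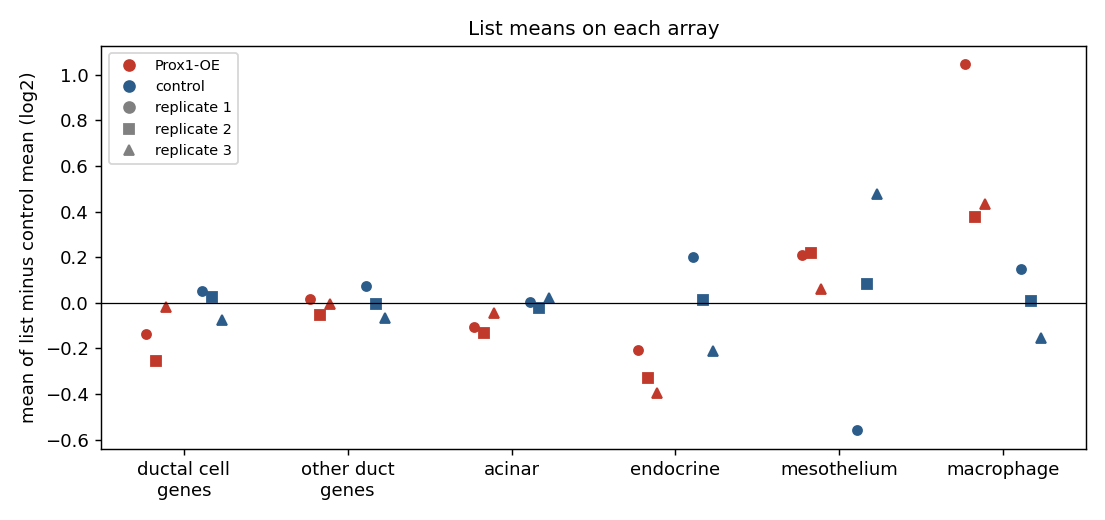
Mean of each list minus its control mean (vertical axis, log2) on the 3 Prox1-OE (red, left) and 3 control arrays (blue, right). The ductal cell genes stay within -0.26 and 0.05 and the other duct genes within -0.07 and 0.07, whereas the macrophage list reaches 1.05 on Prox1-OE replicate 1.

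The genes whose readings were most like the mean of the 8 over the 6 arrays were Tbl1x (Pearson r = 0.991), Trem2 (0.987) and Mfsd6 (0.984), the closest of all genes outside the 8. These values share the same 6 arrays and their normalization, and are given as a description.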

How the data were processed

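Total RNA (100 ng) of whole pancreas was made into biotinylated cRNA and read on Affymetrix 3' arrays for mouse, per the labels' protocols. The authors deposited log2 values per probe set. The submitters' processing notes name RMA and Partek 6.5 without settings. Array medians were nearly equal (4.38 to 4.42); between-array normalization hides a change in total RNA, and differences of dim probe sets are compressed. The number of arrays limits the precision.

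From these values, the probe set with the highest mean stood for each of 18194 genes (34958 probe sets had a single symbol). A fit with limma 3.58.1 (lmFit and eBayes, R 4.3.3) set Prox1-OE against control, two-sided, with no covariate or filter, and p-values were adjusted by Benjamini-Hochberg at 0.05 over all genes. The fit was tested on simulated data (10 runs, 200 genes changed, 5.89% of calls false). Labels do not say whether samples were separate animals, so p-values measure the spread between these samples, which may be technical. The members and lists were chosen with earlier results of these data known. Genes named were all members, up to 6 other duct genes and up to 3 of each other list by smallest p. The 3 genes most like the members were named as well. Aqp1, Ppy, Isl1 and the choice of erythroid genes shown were added after their values were seen. Alternatives were other probe set choices, normalizations, filters, model settings, covariates, a threshold of 0.10 and leaving out each array. No coordinates are printed, since the build behind the array is not given in the sources used here.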

Additional observations from a re-analysis of the deposited data

How the results depend on the processing

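No ductal cell gene and no other duct gene passed at 0.05 under any of the 17 other settings run. None passed at 0.10 in the fit of the report, the only one in which that threshold was counted (with arrays centred on the endocrine list, Pkd1 had adjusted p = 0.0865), and 0 of the 14 probe sets of ductal cell genes passed, or of the 11 that do not carry a mark of shared binding in their name. Of 237 values recomputed for the 8 ductal cell genes and the 6 other duct genes named, 215 kept their direction and 22 changed sign, none of them past the threshold. Centring on the endocrine list turned the median difference of the ductal cell genes to 0.12, and turned Sox9 (0.10), Onecut1 (0.080), Krt7 (0.14), Muc1 (0.046), Car2 (0.081), Bicc1 (0.27), Ambp (0.066), Yap1 (0.17), Pkhd1 (0.075), Wfdc2 (0.15) and Slc26a6 (0.17); that scale raises the median of all genes to 0.30, which by construction lifts every value. Centring on the acinar list turned Bicc1 (0.055), the mean of the probe sets turned Cftr (-0.018), quantile normalization again turned Krt19 (-0.019), and the macrophage covariate turned Cftr (-0.094) and Pkd1 (-0.066). Without 1 array the median of the ductal cell genes ran from -0.21 to -0.085, and the sign was not stable for Krt19 (-0.15 to 0.18), Cftr (-0.071 to 0.093) and Bicc1 (-0.11 to 0.049); the cause was not tested. With the replicate number as a block, 0 ductal cell genes passed and the number of genes called over the whole array was 2 in place of 5. That number was 0 without Prox1-OE replicate 1, without Prox1-OE replicate 3 or with the macrophage covariate, 1 without control replicate 1 or control replicate 2, 3 without Prox1-OE replicate 2 and 4 without control replicate 3, so a count of 0 in the first 3 of these fits says nothing about duct genes. The deviations of same-numbered samples correlated at 0.04, 0.14 and 0.11, and every sample correlated best with its own number. The labels state no pairing, so the numbers were used only in the block setting. Whether same-numbered samples belong together was not tested. The filter on dim genes left 7 of the 8, without Cftr. Cftr stood at percentile 9.66 of all probe sets, which limits what its readings can show.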
